A study of Homo sapiens with 20 samples.

Results

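A set of 9 genes of transfer RNA (tRNA) cleavage, processing and modification was followed after knockdown of Dicer, Ago2 or Drosha. The cells were human embryonic kidney cells, labelled HEK293, HEK293T or HEK293 2B. The genes were ANG, RNH1, POP1, ELAC1, ELAC2, SSB, NSUN2, TRDMT1 and PUS7. They were matched by the gene symbol of each transcript, and the estimated counts of all transcripts of a gene were added up, which gave these 9 of the 57087 genes that hold a transcript in the files. All 9 passed the filter on low counts in both assays.

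tRNA is made by RNA polymerase III as a precursor with a leader and a trailer. RNase P removes the 5′ leader, tRNase Z removes the 3′ trailer, the La protein shields the 3′ end in between, and many bases are then methylated or turned into pseudouridine. Mature tRNA can be cut by ribonucleases such as angiogenin, an RNase A family enzyme that opens the anticodon loop during stress and is held inactive in the cytosol by the ribonuclease inhibitor RNH1. Methylation by NSUN2 and TRDMT1 is known to protect some tRNAs from such cuts, and PUS7 modifies tRNAs and tRNA-derived small RNAs. The study asked how Dicer-dependent small RNAs made from tRNA act on nascent transcripts, so the genes that act on tRNA beside Dicer were of interest.

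The samples were mRNA-seq of 3 wt samples (labelled HEK293T) and 3 shDicer samples (labelled HEK293 2B), both with 3 µg/ml doxycycline for 7 days, and sequencing of chromatin-associated RNA (chrRNA-seq) from 8 samples, a pair each of wt, shDicer, shAgo2 and DroshaKD. In chrRNA-seq the shDicer and shAgo2 cells were inducible HEK293T-REx lines given 3 µg/ml doxycycline for 72 h, and the DroshaKD cells had been transfected with a plasmid for an shRNA against Drosha. Whether the wt and DroshaKD chromatin samples received doxycycline is not given in the sources used here, and no line with a control shRNA is among these samples, so a change that comes with the line and one that comes with the knockdown cannot be told apart. Nothing in the labels says that replicates were separate cultures, so p-values measure the spread between these samples, which may be technical.

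The sum of estimated counts ranged from 10216430 to 17215978 per mRNA-seq sample and from 17484067 to 21553760 per chrRNA-seq sample. A count of 3, taken as the smallest amount that the depth can show, equals 0.184 to 0.311 CPM (counts scaled to a common library size) in mRNA-seq and 0.149 to 0.183 CPM in chrRNA-seq, for counting error only. DICER1 fell by 1.49 on the log2 scale in shDicer mRNA-seq (SE 0.0804, edgeR adjusted p = 1.28e-07) and was at −0.18 in shDicer chrRNA-seq (adjusted p = 0.166). AGO2 fell by 0.62 in shAgo2 chrRNA-seq (adjusted p = 9.29e-05). DROSHA was at 0.07 (adjusted p = 0.697) in the chrRNA-seq samples labelled DroshaKD, so its chromatin RNA was not lower there. The level of its mature transcript is not shown by these samples. The paper measured steady-state Drosha transcripts by qRT-PCR in the cells used for chrRNA-seq, and reports Drosha knockdown by western blot. Of 6 genes usually detected in HEK293 cells, at least 4 were detected in every sample of each group, with a summed level of 105 to 119 CPM in wt and 427 to 860 CPM in shDicer mRNA-seq. The 4 leukocyte markers together stayed under 1 CPM in mRNA-seq and reached 9.37 to 9.47 CPM in wt and 2.53 to 3.13 CPM in shDicer chrRNA-seq. The 4 fibroblast markers stood at 1.78 to 2.35 CPM in wt and 0.984 to 1.49 CPM in shDicer mRNA-seq. In chrRNA-seq these fibroblast markers reached 23.4 to 26.5 CPM in wt, 28.6 to 29.3 in shDicer and 34.5 to 37.7 in shAgo2. The part of any of these lists in the results was not tested. Among replicates, mRNA-seq shDicer replicate 1 stood farthest from its group, where chi-square divided by its degrees of freedom was 25.1 against replicate 3 and 14.6 against replicate 2, while it was 6.39 between replicates 2 and 3.

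A change was called at an adjusted p under 0.001 for mRNA-seq. For chromatin RNA the limit was 0.005 in the inducible lines and 0.05 in DroshaKD. In mRNA-seq, 1 of the 9 genes (ANG) rose and 2 (NSUN2 and POP1) fell after Dicer knockdown, where 15.6% of the 15090 tested genes rose and 14.2% fell. In shDicer chrRNA-seq 1 gene (ELAC1) rose and 2 (RNH1 and POP1) fell, against 11.0% and 10.5% of 32874 genes. In shAgo2 chrRNA-seq 1 gene (TRDMT1) rose and 2 (RNH1 and POP1) fell, against 12.5% and 12.1%. In DroshaKD 1 gene (RNH1) fell and 0 rose, against 2.18% and 1.19%. Counts of 0 to 2 among 9 genes are too small to read a difference from these backgrounds. The median log2 fold change of the 9 was −0.01, −0.10, −0.17 and −0.15 in the 4 comparisons, beside 0.01, 0.01, 0.00 and 0.00 over all tested genes. The 3 chrRNA-seq comparisons share the 2 wt samples.

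**Figure D1:**
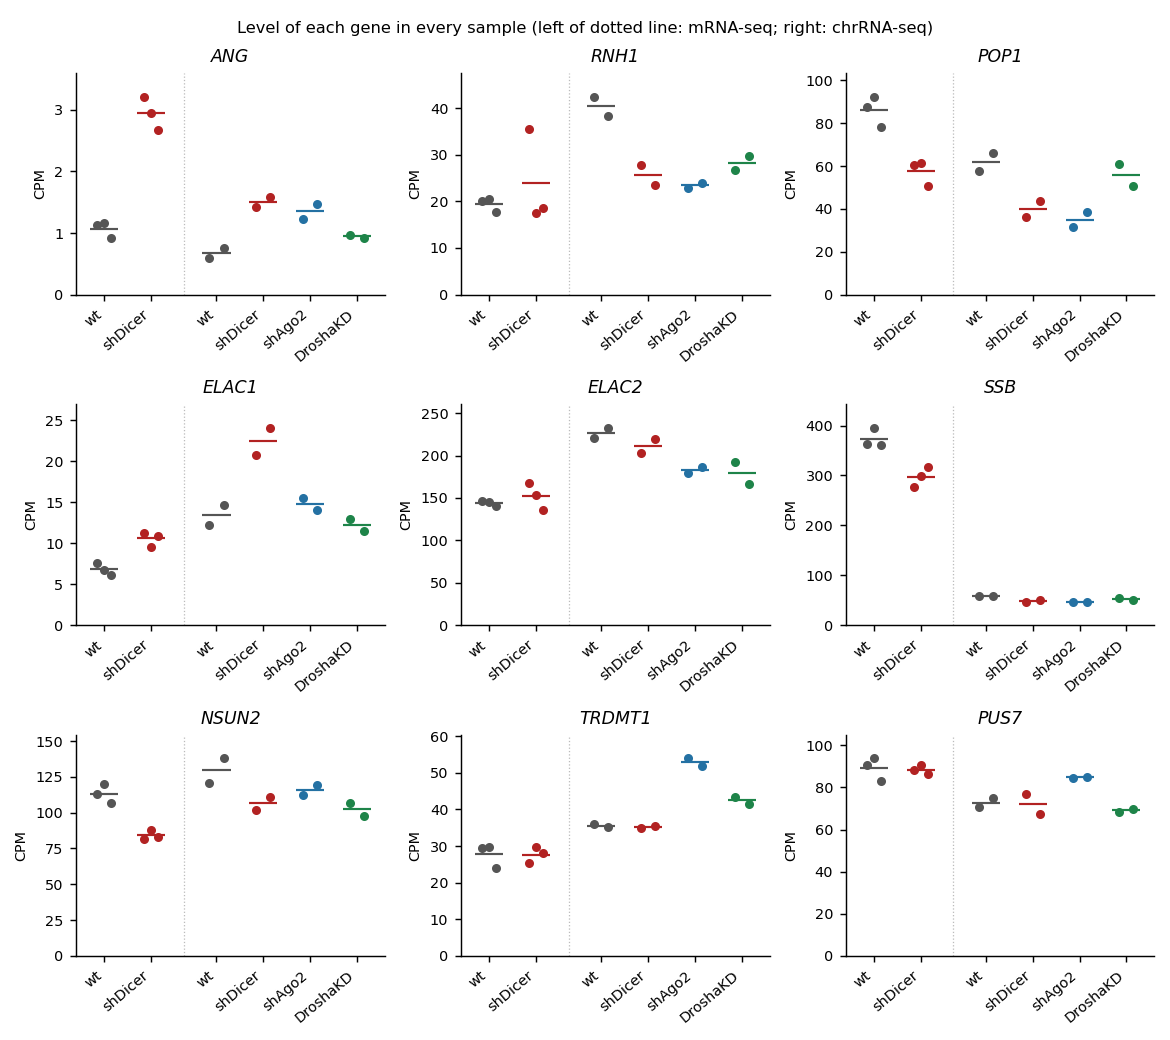
Level of each of the 9 genes in CPM (vertical axis, from 0) in every sample, with a point for each sample and a bar at the group mean; mRNA-seq is left and chrRNA-seq right of the dotted line. ANG lies above all wt samples in every shDicer and shAgo2 sample, and RNH1 lies below both wt samples in every chrRNA-seq knockdown sample.

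ANG encodes angiogenin. The gene (ENSG00000214274) lies on the plus strand at chr14:20684177-20698971 (GRCh38) and shares its start region with RNASE4, which encodes another enzyme of the RNase A family. RefSeq gives 3 start windows for ANG, and 2 of them are also those of RNASE4. The window before the most upstream ANG start and the window before the most downstream one are shown because the 2 coding ANG transcripts begin at either of them. Both are on the plus strand of GRCh38.p14, at chr14:20683927-20684176 and chr14:20688514-20688763. In the upstream window the capitals mark a tRNA gene, TRP-TGG3-2 (a proline tRNA gene, chr14:20684016-20684087, 72 bases), which ends 89 bases before the ANG start. In the downstream window, shared with RNASE4, no searched motif was found and nothing is in capitals.

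ANG upstream window: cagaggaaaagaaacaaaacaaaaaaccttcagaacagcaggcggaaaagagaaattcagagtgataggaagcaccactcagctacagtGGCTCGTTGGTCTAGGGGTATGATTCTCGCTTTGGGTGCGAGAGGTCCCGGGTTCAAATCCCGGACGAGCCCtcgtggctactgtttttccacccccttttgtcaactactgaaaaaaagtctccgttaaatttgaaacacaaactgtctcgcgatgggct
ANG and RNASE4 downstream window: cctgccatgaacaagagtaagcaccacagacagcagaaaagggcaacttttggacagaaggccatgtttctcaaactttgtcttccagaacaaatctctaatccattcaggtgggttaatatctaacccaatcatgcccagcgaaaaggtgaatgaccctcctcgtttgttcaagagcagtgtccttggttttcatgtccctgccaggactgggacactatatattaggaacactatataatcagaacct

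The middle window (chr14:20684310-20684559), also shared, overlaps an exon of the ANG transcript from the upstream start and is not printed. The 2 printed windows hold 47.6 and 44% G and C, and the middle one 71.2%, beside a median of 58.0% over 34943 windows of 250 bases before a start. The letters of the B box, the internal promoter element of tRNA genes, searched by its consensus on both strands, occurred 1 time in the upstream ANG window (GGTTCAAATCC, at chr14:20684066-20684076, inside the tRNA gene), and in 0.724% of all windows. The motif CCGCCC, searched on both strands, was found 2 times in the middle window and in 42.5% of all windows, and TATAAA in none of the 3 ANG windows and 10.8% of all. RefSeq lists 14 tRNA genes within 100000 bases of ANG and 0 within that distance of the other 8 genes, and 3.48% of the genes tested in mRNA-seq and 2.81% of those tested in chrRNA-seq have at least 1. Start windows were found for 7 of the 9 genes.

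In mRNA-seq, ANG stood at 1.13, 1.16 and 0.921 CPM in the 3 wt samples and at 3.21, 2.95 and 2.68 CPM in the 3 shDicer samples. The groups did not overlap, and each shDicer sample was above each wt sample. ANG rose by 1.44 on the log2 scale (SE 0.257, adjusted p = 0.000643, edgeR), from 1.07 ± 0.130 to 2.95 ± 0.265 CPM (SD, n = 3 each). These levels rest on estimated counts of 9.41 to 14.3 in wt and 38.8 to 45.2 in shDicer samples. The call was lost without any 1 of the 6 samples (adjusted p = 0.00153 to 0.00416) and with DESeq2 (adjusted p = 0.00611). It was also lost with the replicate number as a block (adjusted p = 0.0013) and with unmatched transcripts kept as features (adjusted p = 0.00202). The log2 fold change stayed between 1.35 and 1.51 in those fits. In bulk RNA, fewer cells of a kind and less RNA per cell cannot be told apart, here and in all comparisons that follow.

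In chrRNA-seq, ANG stood at 0.593 and 0.758 CPM in wt, 1.42 and 1.59 in shDicer, 1.23 and 1.47 in shAgo2, and 0.971 and 0.925 in DroshaKD samples. On this scale all 6 knockdown samples were above both wt samples. In TPM, a transcript level per length, the shDicer and shAgo2 samples were also above wt (0.59 and 0.777). The DroshaKD samples, at 0.641 and 0.611 TPM, overlapped wt, so their order depends on the unit. The log2 fold change was 1.15 (SE 0.322, adjusted p = 0.0141) in shDicer, 0.99 (SE 0.327, adjusted p = 0.029) in shAgo2 and 0.49 (SE 0.351, adjusted p = 0.517) in DroshaKD, so none passed the threshold at counts of 9.54 to 30.3 per sample. shDicer and shAgo2 differed by 0.16 on the log2 scale, with an interval of 2 SE from −0.39 to 0.71. For the 50 tested genes nearest to ANG on the chromosome, the median log2 fold change was 0.03 in shDicer mRNA-seq and between 0.08 and 0.11 in the 3 chrRNA-seq comparisons.

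RNASE4, beside it, stood at 2.11, 2.4 and 2.97 CPM in wt and at 2.66, 4.39 and 5.66 CPM in shDicer mRNA-seq, where the groups overlapped. Its log2 fold change was 0.79 in mRNA-seq (adjusted p = 0.037), 0.81 in shDicer chrRNA-seq (adjusted p = 0.0104) and 0.82 in shAgo2 chrRNA-seq (adjusted p = 0.00873), and none passed the threshold. Another gene of the locus, ENSG00000259171, has a transcript at chr14:20684587-20700576 that spans the shared start region and most of RNASE4, and it was singled out after its values were seen. Its estimated count was 13.2, 4.36 and 9.84 in wt and 50.7, 44.7 and 64.9 in shDicer mRNA-seq, a rise of 2.20 on the log2 scale (SE 0.333, adjusted p = 0.000206), and it was listed at 0 in all chrRNA-seq samples. The 3 genes share sequence: of all stretches of 31 bases in ANG transcripts 24.0% also occur in another gene, 17.5% in ENSG00000259171 alone, and of those in RNASE4 69.5% do. How the reads of this locus were divided between the 3 genes is therefore uncertain.

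The 2 coding ANG transcripts differ in their start. The transcript from the upstream start had an estimated count of 14.3, 11.2 and 3.14 in wt and 19.1, 14.9 and 21.4 in shDicer mRNA-seq. The transcript from the downstream start had 0, 1.80 and 6.27 in wt and 21.6, 23.9 and 23.8 in shDicer samples. Scaled to the counts of each library, the transcript from the upstream start stood at 1.15, 0.996 and 0.325 CPM in wt and at 1.47, 1.1 and 1.31 CPM in shDicer samples, and the one from the downstream start at 0, 0.159 and 0.649 CPM and at 1.66, 1.76 and 1.46 CPM. The groups overlapped for the upstream start and did not for the downstream start. At these counts the division between transcripts is an estimate from few reads, and no test was made on it. Over the 8 chrRNA-seq samples, the genes most like ANG by Pearson's r of log2 CPM, out of 15841 genes compared, were IFT57 (0.991), MIR99AHG (0.979) and DUSP16 (0.978), which is a description of 4 groups of 2 samples that share their libraries.

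RNH1, the cytosolic inhibitor of RNase A family enzymes, has the gene ENSG00000023191 on the minus strand at chr11:494512-507300. In chrRNA-seq it stood at 42.4 and 38.4 CPM in wt, 27.7 and 23.5 in shDicer, 22.9 and 24.0 in shAgo2, and 26.7 and 29.7 in DroshaKD samples. Every knockdown sample lay below both wt samples. RNH1 fell by 0.66 on the log2 scale in shDicer (SE 0.103, adjusted p = 0.000343), by 0.78 in shAgo2 (SE 0.104, adjusted p = 8.19e-05) and by 0.52 in DroshaKD (SE 0.103, adjusted p = 0.0213). The 2 inducible lines differed by 0.13 (interval of 2 SE from −0.08 to 0.34).

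RNH1 lies near the end of chromosome 11, and its 50 nearest tested genes also had lower values, and their median log2 fold changes were −0.48 (shDicer), −0.41 (shAgo2) and −0.20 (DroshaKD). Relative to these neighbours the RNH1 value was −0.18 (adjusted p = 0.218), −0.37 (adjusted p = 0.0151) and −0.32 (adjusted p = 0.131), so that none of the 3 calls held. The shDicer call was also lost without wt replicate 1 (adjusted p = 0.00757), and the DroshaKD call without wt replicate 1, wt replicate 2 or DroshaKD replicate 1, where the adjusted p reached 0.214. The DroshaKD call was also lost with the replicate number as a block (adjusted p = 0.0555), with counts scaled from TPM (adjusted p = 0.0556) and with unmatched transcripts kept (adjusted p = 0.0642).

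In mRNA-seq RNH1 passed no threshold. It stood at 20.0, 20.5 and 17.7 CPM in wt and at 35.6, 17.6 and 18.5 CPM in shDicer samples. Replicate 1 alone was high, and the other shDicer samples lay within or just below the wt range. The log2 fold change was 0.29 (SE 0.236, adjusted p = 0.309), and −0.10 without that replicate (adjusted p = 0.457). The RNH1 transcripts differed between the assays: not protein coding were 9.45 to 26.1% of the estimated counts in mRNA-seq and 56.0 to 69.1% in chrRNA-seq, where the leading one is annotated as a retained intron.

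The level of RNH1 relative to ANG, as a ratio of summed TPM (a transcript level per length, scaled to the same total in each sample), was 11.4, 11.3 and 7.72 in wt and 5.07, 2.81 and 3.02 in shDicer mRNA-seq. In chrRNA-seq it was 29.9 and 19.2 in wt, 10.7 and 5.22 in shDicer, 10.2 and 5.35 in shAgo2, and 13.5 and 19.9 in DroshaKD samples. All shDicer and shAgo2 samples lay below all wt samples of the same assay, and DroshaKD overlapped wt. From CPM, a scale without length, the DroshaKD ratios of 27.5 and 32.1 were below the wt ratios of 71.5 and 50.7, so that order depends on the unit. The ratio was not tested, since both of its parts were.

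**Figure D2:**
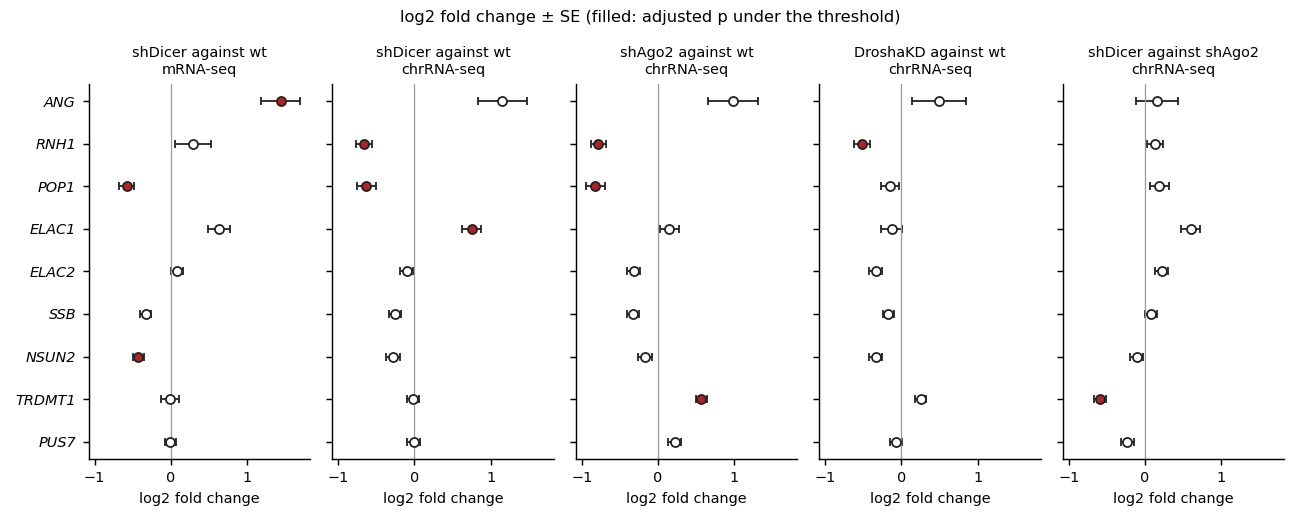
log2 fold change (horizontal axis) with SE as bars for the 9 genes in the 5 comparisons; filled points have an adjusted p under the threshold. ANG is at 1.44, 1.15, 0.99 and 0.49 against wt, and the only filled point between shDicer and shAgo2 is TRDMT1 at −0.59.

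POP1 is the largest protein of RNase P, which removes the 5′ leader of tRNA precursors, and of the related RNase MRP. The gene (ENSG00000104356) lies on chr8. POP1 stood at 87.5, 92.3 and 78.2 CPM in wt and at 60.7, 61.6 and 50.7 CPM in shDicer mRNA-seq. In chrRNA-seq it stood at 57.8 and 65.9 in wt, 36.4 and 43.7 in shDicer, 31.7 and 38.4 in shAgo2, and 61.0 and 50.8 CPM in DroshaKD samples. In both assays the shDicer samples lay below all wt samples, as did shAgo2, whereas DroshaKD overlapped wt.

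POP1 fell by 0.58 in shDicer mRNA-seq (SE 0.0979, adjusted p = 0.000447), by 0.63 in shDicer chrRNA-seq (SE 0.125, adjusted p = 0.00187) and by 0.82 in shAgo2 chrRNA-seq (SE 0.126, adjusted p = 0.000262), and was at −0.15 in DroshaKD (adjusted p = 0.575). It is the only 1 of the 9 genes called in the same direction in 3 comparisons that involve both assays. Its 50 nearest tested genes were at a median of −0.39, −0.19 and −0.17, and relative to them POP1 was at −0.19 (adjusted p = 0.118) and −0.43 (adjusted p = 0.0198) in the shDicer comparisons, no longer called, and at −0.65 in shAgo2 (adjusted p = 0.0019), still called. All 3 calls were lost with counts scaled from TPM (adjusted p = 0.00317, 0.0078 and 0.00983), and both shDicer calls with unmatched transcripts kept (adjusted p = 0.00197 and 0.0111). The mRNA-seq call was lost without 4 of the 6 samples in turn (wt replicates 1 and 2, shDicer replicates 2 and 3, adjusted p up to 0.00675). In chrRNA-seq, leaving out 1 sample ended the shDicer call in 3 of 4 cases (wt replicates 1 and 2 and shDicer replicate 1, adjusted p up to 0.0277) and the shAgo2 call in 2 of 4 (wt replicate 2 and shAgo2 replicate 1, adjusted p up to 0.0069).

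At the other end of the precursor act the tRNase Z enzymes. ELAC1, the short form, has its gene (ENSG00000141642) on the plus strand at chr18:50967991-50988121. It stood at 7.54, 6.76 and 6.14 CPM in wt and at 11.3, 9.53 and 10.9 CPM in shDicer mRNA-seq, with no overlap, but the log2 fold change of 0.63 did not pass the threshold (SE 0.148, adjusted p = 0.00374). In chrRNA-seq it stood at 12.2 and 14.7 in wt, 20.8 and 24.1 in shDicer, 15.5 and 14.1 in shAgo2, and 12.9 and 11.5 CPM in DroshaKD samples. Both shDicer samples lay above all the others.

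ELAC1 rose by 0.75 in shDicer chrRNA-seq (SE 0.124, adjusted p = 0.000543), and was at 0.15 in shAgo2 (adjusted p = 0.391) and −0.13 in DroshaKD (adjusted p = 0.646). The direct difference between shDicer and shAgo2 was 0.60 (SE 0.121, adjusted p = 0.00922), which missed the threshold of 0.005, so the 2 lines are not shown to differ in ELAC1. Its 50 nearest tested genes were at a median of 0.81 in shDicer mRNA-seq and 0.74 in shDicer chrRNA-seq, as high as ELAC1 itself. Relative to them ELAC1 was at −0.18 (adjusted p = 0.341) and 0.00 (adjusted p = 0.986), and the call was gone. It was also lost without wt replicate 1 (adjusted p = 0.0127) and with counts scaled from TPM (adjusted p = 0.00994).

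ELAC2, the long form of tRNase Z, which trims 3′ trailers in the nucleus and in mitochondria (ENSG00000006744, minus strand, chr17:12991612-13018065), passed no threshold. It stood at 146, 145 and 141 CPM in wt and at 168, 153 and 136 CPM in shDicer mRNA-seq, which overlapped. In chrRNA-seq it stood at 221 and 233 in wt, 203 and 220 in shDicer, 179 and 186 in shAgo2, and 192 and 166 CPM in DroshaKD samples. All knockdown samples were at or below the lower wt sample, with log2 fold changes of −0.10 (adjusted p = 0.387), −0.32 (adjusted p = 0.0111) and −0.34 (adjusted p = 0.0544). The DroshaKD value lay just outside its threshold, and DESeq2 (adjusted p = 0.0178) or no filter on low counts (adjusted p = 0.022) put it inside. Relative to its neighbours, at a median of 0.17, the shAgo2 value passed (−0.49, adjusted p = 0.000998).

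SSB, the La protein that binds the 3′ end of new RNA polymerase III transcripts (ENSG00000138385, plus strand, chr2:169791933-169812064), had the highest level of the 9 genes in mRNA-seq. It stood at 364, 396 and 362 CPM in wt and at 277, 298 and 317 CPM in shDicer samples, a difference of −0.33 that did not overlap but missed the threshold (SE 0.0747, adjusted p = 0.00299). In chrRNA-seq it was at 58.6 and 58.2 in wt, 47.1 and 51.0 in shDicer, 46.2 and 46.8 in shAgo2, and 54.2 and 49.9 CPM in DroshaKD samples, all knockdown samples below wt. The closest value was that of shAgo2, at −0.33 (SE 0.0785, adjusted p = 0.00518), just outside 0.005. Stretches of 31 bases shared with other genes make up 12.1% of SSB, 5.12% with SSBL5P, so how its reads were divided is uncertain. Relative to its neighbours, at a median of 0.12 in mRNA-seq, SSB passed there (−0.45, adjusted p = 0.000473).

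Among the genes that modify tRNA, NSUN2, which makes 5-methylcytosine in many tRNAs (ENSG00000037474, minus strand, chr5:6599239-6633291), stood at 113, 120 and 107 CPM in wt and at 81.7, 87.6 and 83.0 CPM in shDicer mRNA-seq. The groups did not overlap. NSUN2 fell by 0.43 (SE 0.0729, adjusted p = 0.000447), while its 50 nearest tested genes had a median of 0.26, and relative to them it was at −0.69 (adjusted p = 2.04e-05). Leaving out 1 sample kept the value between −0.48 and −0.39, but the call was lost in 5 of the 6 cases (adjusted p up to 0.00498; it held only without shDicer replicate 1). It was also lost with counts scaled from TPM (adjusted p = 0.00144) and with unmatched transcripts kept (adjusted p = 0.0013).

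In chrRNA-seq NSUN2 stood at 121 and 138 CPM in wt, 102 and 111 in shDicer, 112 and 119 in shAgo2, and 107 and 97.6 in DroshaKD samples. All 6 knockdown samples lay below wt, and none of the differences, −0.28, −0.17 and −0.34, passed its threshold (adjusted p = 0.0267, 0.159 and 0.0638). Relative to neighbours at a median of 0.24 and 0.11, the shAgo2 and DroshaKD values did pass, at −0.40 (adjusted p = 0.00422) and −0.45 (adjusted p = 0.0279).

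TRDMT1 (formerly DNMT2), which methylates a cytosine in the anticodon loop of aspartate tRNA, was the only 1 of the 9 genes called between shDicer and shAgo2. Its gene (ENSG00000107614) lies on the minus strand at chr10:17137336-17202054. In chrRNA-seq it stood at 36.1 and 35.1 CPM in wt, 34.8 and 35.5 in shDicer, 54.0 and 51.8 in shAgo2, and 43.3 and 41.6 in DroshaKD samples. Both shAgo2 samples were above all other samples, and the shDicer and wt samples overlapped.

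TRDMT1 rose by 0.57 in shAgo2 (SE 0.0764, adjusted p = 8.83e-05), and the direct comparison of shDicer with shAgo2 gave −0.59 (SE 0.0757, adjusted p = 0.00071), where 1.37% of tested genes were higher and 1.34% lower in shDicer. In shDicer it was at −0.02 (interval of 2 SE from −0.17 to 0.14), and in DroshaKD at 0.25 (SE 0.0775, adjusted p = 0.097). The 50 nearest tested genes were at a median of 0.11 in shAgo2, and relative to them TRDMT1 still passed (0.46, adjusted p = 0.000642). The shAgo2 call against wt held without each of the 4 samples in turn. The call between the 2 lines held only without shDicer replicate 2, and without shDicer replicate 1 or either shAgo2 replicate its adjusted p was 0.00503 to 0.0179. With counts scaled from TPM the adjusted p was 0.0129.

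In mRNA-seq TRDMT1 stood at 29.4, 29.8 and 24.1 CPM in wt and at 25.3, 29.7 and 28.0 CPM in shDicer samples (log2 fold change −0.01, SE 0.118, adjusted p = 0.972). Most of its chrRNA-seq count was not assigned to a protein-coding transcript: a transcript annotated for nonsense-mediated decay held 62.7 to 68.3% of it, and all transcripts not annotated as protein coding 87.4 to 91.3%. In mRNA-seq the latter held 47.8 to 57.6%.

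PUS7, a pseudouridine synthase of tRNA and mRNA (ENSG00000091127, minus strand, chr7:105439661-105522271), passed no threshold. It stood at 90.9, 93.9 and 83.1 CPM in wt and at 88.4, 90.7 and 86.5 CPM in shDicer mRNA-seq, where the difference was −0.01 with an interval of 2 SE from −0.16 to 0.13. Its neighbours there were at a median of 0.43, and relative to them PUS7 passed (−0.44, adjusted p = 0.000484). In chrRNA-seq it was at 70.5 and 75.0 in wt, 76.9 and 67.3 in shDicer, 84.6 and 85.2 in shAgo2, and 68.5 and 70.0 CPM in DroshaKD samples. The 2 shAgo2 samples were the highest, at 0.22 on the log2 scale against wt (SE 0.0813, adjusted p = 0.0452), with neighbours at a median of 0.20.

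**Figure D3:**
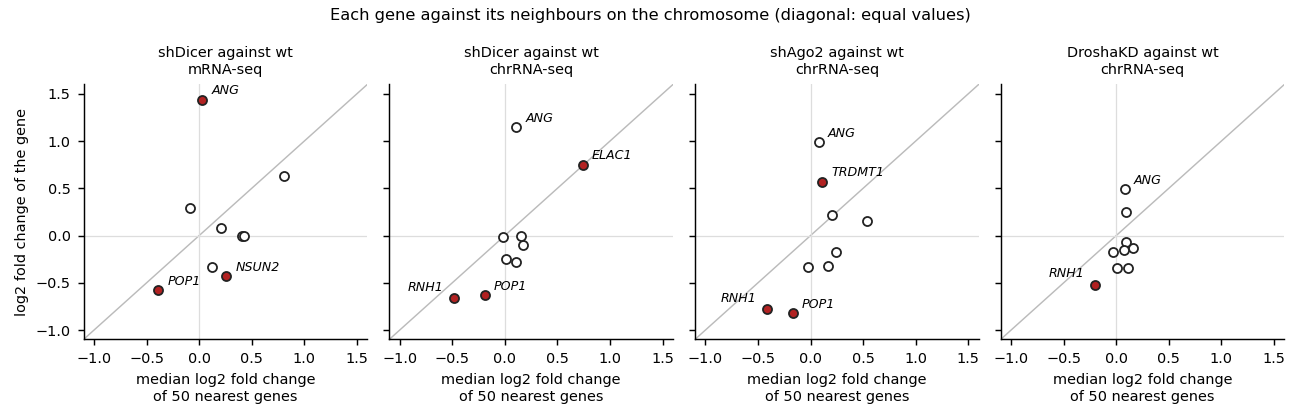
log2 fold change of each of the 9 genes (vertical axis) against the median log2 fold change of its 50 nearest tested genes on the chromosome (horizontal axis) in the 4 comparisons with wt; filled points passed the threshold and the diagonal marks equal values. In shDicer chrRNA-seq ELAC1 lies on the diagonal (0.75 against 0.74), RNH1 is close to it (−0.66 against −0.48), and ANG is well above it (1.15 against 0.11).

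By level per length (TPM), the order of the genes in wt mRNA-seq was SSB (134 ± 14.0, SD, n = 3), ELAC2 (48.2 ± 6.53), NSUN2 (21.4 ± 1.13), PUS7 (19.4 ± 1.85), POP1 (12.7 ± 2.86), TRDMT1 (6.17 ± 0.242), RNH1 (6.12 ± 0.844), ELAC1 (2.21 ± 0.0628) and ANG (0.614 ± 0.0891). NSUN2 and PUS7 overlapped in their samples, as did TRDMT1 and RNH1. In wt chrRNA-seq ELAC2 was the highest (119 ± 1.11, n = 2), SSB (52.6 ± 1.85) and NSUN2 (51.7 ± 0.704) overlapped behind it, and ANG was again the lowest (0.684 ± 0.132). The assays were normalized apart, so levels are compared within each of them. The transcripts of SSB differed between the assays: 1 protein-coding transcript held 90.7 to 94.5% of its counts in mRNA-seq, while in chrRNA-seq the leading transcript, another coding one, held 16.4 to 23.4% and transcripts not annotated as protein coding 46.3 to 55.4%.

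For context, 139 other genes of tRNA transcription, processing, modification and cleavage were taken in 11 lists. In shDicer mRNA-seq 5 of the 137 tested rose and 39 (28.5%) fell, with a median log2 fold change of −0.27. In shDicer chrRNA-seq 4 of 138 rose and 46 (33.3%) fell, with a median of −0.29. In shAgo2 9 rose and 45 (32.6%) fell (median −0.25), and in DroshaKD 1 rose and 7 (5.07%) fell (median −0.05). Values below 0 made up 73.7, 80.4, 70.3 and 57.2% of these genes in the 4 comparisons, beside 49 to 49.8% of all tested genes and 52.9 to 54% of those with a mean log2 CPM of 3 or more.

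Most of these genes have high counts, which makes a call easier. Among all genes whose mean log2 CPM reached 3, a limit chosen after the data were seen, 19.4% fell in shDicer mRNA-seq, and 18.1, 20.1 and 4.23% in shDicer, shAgo2 and DroshaKD chrRNA-seq, while 16.7, 14.6, 16.3 and 1.78% rose in the 4 comparisons. The tRNA pathway genes above the same limit fell in 30.0, 34.4, 34.4 and 5.34% of cases, and 3, 4, 8 and 1 of them rose. The 3 chrRNA-seq shares rest on the same wt samples. Over all tested genes, 14.2, 10.5, 12.1 and 2.18% fell and 15.6, 11.0, 12.5 and 1.19% rose in the same order of comparisons. The counts of single lists that follow are to be read beside these shares.

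RNase P is a complex of 1 RNA and several proteins that it partly shares with RNase MRP. Of 13 genes of RNase P and RNase MRP, POP1 included, 1 rose and 4 fell in shDicer mRNA-seq, 0 rose and 3 fell in shDicer chrRNA-seq, and 1 rose and 3 fell in shAgo2. RPP25, a protein subunit, fell from 19.9 ± 1.22 to 5.03 ± 1.81 CPM in shDicer mRNA-seq (−1.99 on the log2 scale, adjusted p = 1.43e-05), and was also called in shDicer (−1.1) and shAgo2 (−0.64) chrRNA-seq. RPP21 rose by 3.96 in shDicer mRNA-seq from a level close to the floor (0.393 ± 0.0619 CPM, n = 3) and by 3.47 in shAgo2 (from 0.275 ± 0.031 CPM, n = 2), but 23.6% of its stretches of 31 bases are those of the readthrough gene TRIM39-RPP21, so its values are uncertain. It lies in the MHC region, where transcripts of other haplotypes may be among those that matched no gene and were left out, so part of its counts may be missing. RPPH1, the RNA subunit of RNase P, rose in DroshaKD by 0.86 (adjusted p = 0.0267).

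Of the 3 genes of the protein-only mitochondrial RNase P, TRMT10C fell in shDicer mRNA-seq from 147 ± 14.2 to 60.4 ± 3.40 CPM (−1.28, adjusted p = 7.05e-07) and fell by 0.62 in shDicer chrRNA-seq (adjusted p = 0.00392), and HSD17B10 rose in mRNA-seq by 0.61 (adjusted p = 6.55e-05). At the 3′ end, TRNT1, which adds the CCA tail, rose by 0.57 in shDicer and 0.53 in shAgo2 chrRNA-seq, and XPOT, the tRNA exporter, fell by 0.45 in shDicer mRNA-seq (adjusted p = 0.000151). The list of intron splicing (11 genes) had 0 genes up in any comparison and 5, 4, 3 and 1 down in shDicer mRNA-seq and in shDicer, shAgo2 and DroshaKD chrRNA-seq. The kinase CLP1 was among those that fell in both shDicer data sets (−0.89 and −0.99), and RTCB, the tRNA ligase, in all 3 chrRNA-seq comparisons (−0.92, −0.88 and −0.57).

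Among 9 genes for enzymes that cut tRNA and their inhibitor, 8 were tested. SLFN11, which cuts certain serine and leucine tRNAs, was at 0, 0.178 and 0.409 CPM in wt (0, 2 and 4 counts) and at 262, 286 and 286 CPM in shDicer mRNA-seq. It was at 1.13 and 1.01 in wt, 106 and 144 in shDicer, 141 and 157 in shAgo2, and 0.571 and 0.544 CPM in DroshaKD chrRNA-seq. SLFN13, a related tRNA endonuclease, rose by 3.60, 0.84 and 0.75 in the shDicer mRNA-seq, shDicer chrRNA-seq and shAgo2 comparisons (adjusted p = 1.16e-05, 0.000118 and 0.000253). Its mRNA-seq rise was from a level at the floor (0.29 ± 0.171 CPM) to 3.72 ± 0.436 CPM (n = 3 each), so its size is uncertain. Of its stretches of 31 bases, 11.0% occur in other genes, most of them in SLFN11. With ANG and RNH1 included, and DICER1 among the genes that fell in mRNA-seq, the list had a median of 0.69, 0.49, 0.76 and 0.13 in the 4 comparisons.

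For base modification, 12 pseudouridine synthase genes had 0 up and 3 down in shDicer mRNA-seq, 1 up and 4 down in shDicer chrRNA-seq, and 1 up and 3 down in shAgo2. PUS3 fell by 1.26 in mRNA-seq (adjusted p = 2.41e-06), and RPUSD1 was at −1.38 in shDicer and −1.52 in shAgo2 chrRNA-seq, both called. Of 34 genes of other methylation, 1 rose and 9 fell in shDicer mRNA-seq, 0 rose and 11 fell in shDicer chrRNA-seq, and 0 rose and 10 fell in shAgo2. THUMPD1, an adapter for tRNA acetylation kept in this list, fell in mRNA-seq from 191 ± 12.2 to 82.7 ± 6.18 CPM (−1.20, adjusted p = 6.29e-07), and WDR6 fell, at −0.88, −1.11 and −0.62, in shDicer, shAgo2 and DroshaKD chrRNA-seq. In shDicer mRNA-seq WDR6 was at 0.01 and not called. Of 29 genes for the anticodon loop (28 tested in mRNA-seq), 0, 0 and 1 rose and 8, 13 and 12 fell in the same 3 comparisons with shDicer and shAgo2. ELP2, a subunit of the Elongator complex that modifies wobble uridines, fell by 1.05 in shDicer mRNA-seq and was at −0.83 and −1.16, both called, in shDicer and shAgo2 chrRNA-seq.

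The m5C list of 4 genes holds NSUN2 and TRDMT1. Besides them, NSUN6 rose in shAgo2 by 0.42 (adjusted p = 0.00164), next to neighbours at a median of 0.40, and TRDMT1 and NSUN6 both lie on chromosome 10. The 5 dihydrouridine genes had 0 called in shDicer and 3 down in shAgo2 (DUS1L at −0.47, DUS3L at −0.62 and DUS2 at −0.38).

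Several of these calls were lost relative to the 50 nearest tested genes: CLP1 in mRNA-seq (adjusted p = 0.00114), TRNT1 (0.127 and 0.519) and SLFN13 (0.0651 and 0.079) in shDicer and shAgo2 chrRNA-seq, RPP21 (0.00525), NSUN6 (0.934) and all 3 dihydrouridine genes in shAgo2, and RPPH1 (0.0549) in DroshaKD. RPP25, TRMT10C, PUS3, THUMPD1, ELP2 and WDR6 kept every call named here.

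**Figure D4:**
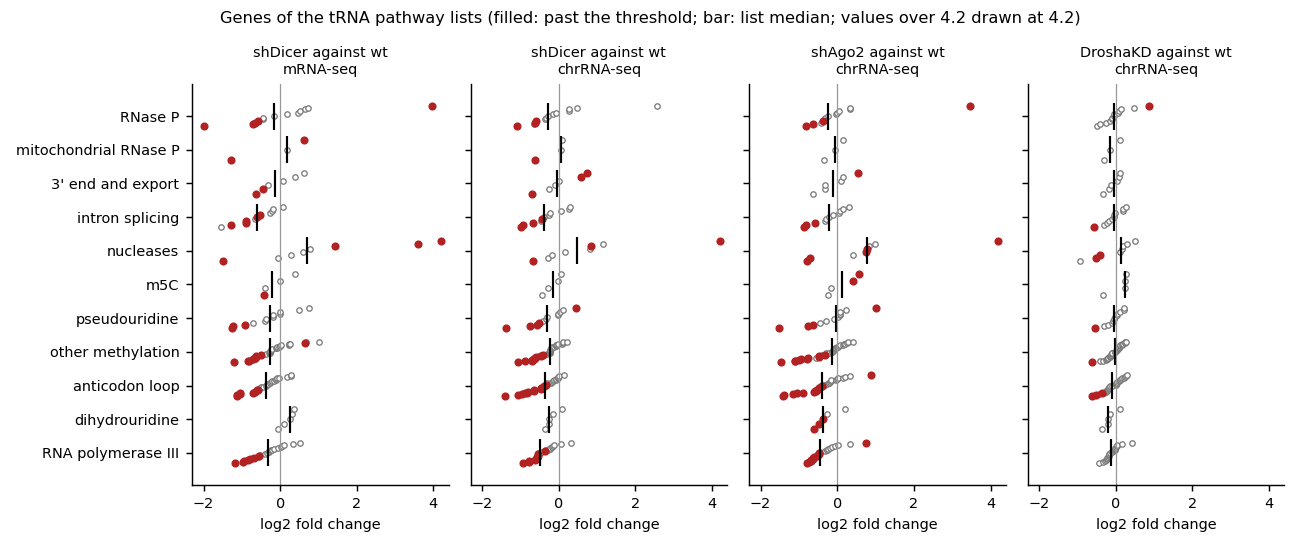
log2 fold change (horizontal axis) of every tested gene of the 11 lists (rows) in the 4 comparisons with wt; filled points passed the threshold, bars mark list medians, and SLFN11 is drawn at the right edge in the shDicer and shAgo2 panels. Filled points lie mostly below 0 in the shDicer and shAgo2 panels, with list medians of −0.32, −0.48 and −0.46 for RNA polymerase III.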

How the data were processed

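RNA of 14 samples was analysed; small RNA-seq of 6 samples of the same study was not analysed here. The authors ran kallisto on Ensembl cDNA and non-coding RNA sequences (GRCh38) and deposited an estimated count and a TPM value for each transcript, neither of them filtered. Estimated counts, as the authors deposited them, carry no normalization and need not be whole, since kallisto splits a read between the transcripts it fits. TPM, as the authors deposited it, is a level per effective length with the same total in each sample. Bowtie, TopHat2 and DESeq2 are also named in the submitters' processing notes, and how reads were trimmed is not given in the sources used here. The index holds spliced transcripts and annotated retained introns, so other intronic reads of chromatin RNA are not counted. The labels call the RNA of mRNA-seq polyA RNA, while the kit named is one for total RNA.

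Transcripts were assigned to genes with GENCODE release 44 (193697 of 217082, holding 93.42 to 94.83% of the counts of a sample). Counts were summed per gene, rounded to whole numbers and tested with edgeR 4.0.16 in R 4.3.3: filterByExpr, TMM factors (0.978 to 1.03 in mRNA-seq, 0.968 to 1.05 in chrRNA-seq), a quasi-likelihood fit of 6 samples for mRNA-seq and of 8 for chrRNA-seq, and Benjamini-Hochberg adjustment over all tested genes. All adjusted p-values are from edgeR unless DESeq2 (1.42.0) is named. Thresholds follow the study, with 0.005 between shDicer and shAgo2. Log2 fold changes are given with an SE derived from the edgeR test, and CPM as mean ± SD. This SE is the absolute log2 fold change divided by the square root of the F statistic. The procedure was tested on simulated data. Lists were described by counts and medians, with no set test. Named genes are the 9 genes, RNASE4, the targeted genes and, for each list and comparison, up to 3 called genes of smallest adjusted p whose groups do not overlap. The genes, lists and tests were chosen with earlier results of these data known. Alternatives were RLE size factors, no filter, DESeq2, a replicate block, counts scaled from TPM, unmatched transcripts kept, the median of the 50 nearest tested genes as an offset, another threshold, only 2 groups in a fit and each sample left out. Start windows, tRNA genes and their coordinates are RefSeq's (GRCh38.p14), and shared stretches of 31 bases were counted in GENCODE transcripts.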

Additional observations from a re-analysis of the deposited data

Results flagged for a closer look

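Results listed here are those where the effects of shDicer and shAgo2 in chrRNA-seq, both against the same 2 wt samples, differed in the direct edgeR comparison of the 2 lines. Of the 9 genes this held for TRDMT1, at −0.59 on the log2 scale (lower in shDicer, adjusted p = 0.00071, 2 of 2 shDicer samples below both shAgo2 samples). Among the targeted genes DICER1 was lower in shDicer, at −0.95 (adjusted p = 0.00011), while against wt it had risen in shAgo2, and AGO2 was higher in shDicer by 0.52 (adjusted p = 0.00245).

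Among the other tRNA genes, METTL1 and WDR4, which together form the enzyme for 7-methylguanosine in tRNA, were higher in shDicer than in shAgo2, by 0.81 (adjusted p = 0.000763) and 0.64 (adjusted p = 0.00294). RNASET2, a lysosomal ribonuclease, was also higher, by 0.42 (adjusted p = 0.00429). TPRKB, a subunit of the KEOPS complex, was lower, at −0.88 (adjusted p = 0.000549), CDKAL1, which thiomethylates a lysine tRNA, was at −0.62 (adjusted p = 0.00173), and PUSL1, a pseudouridine synthase, at −0.57 (adjusted p = 0.00286). Against wt, METTL1 was lower in both shDicer (−0.64) and shAgo2 (−1.46), as was WDR4 (−0.47 and −1.11), all called. PUSL1 was called higher than wt in both (0.44 and 1.01). RNASET2 was at −0.28, not called, in shDicer and at −0.7, called, in shAgo2. TPRKB was called against wt only in shAgo2 (0.88) and CDKAL1 only in shDicer (−0.44). Relative to their 50 nearest tested genes, AGO2, METTL1, WDR4, RNASET2, CDKAL1 and PUSL1 no longer passed (adjusted p = 0.00672, 0.0764, 0.137, 0.00607, 0.0822 and 0.0109), while TRDMT1, DICER1 and TPRKB did.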

How the results depend on the processing

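Of 594 values of the 9 genes under alternatives, 491 kept their direction and side of the threshold, 25 changed sign while not called, 50 fell short of the threshold, 28 newly passed and 0 reversed a call. Of 3 genes called in shDicer mRNA-seq, the count was 5 with no filter, 1 with counts scaled from TPM, 0 with unmatched transcripts kept, 5 at 0.05 and 0 to 2 without 1 sample. Of 3 in shDicer chrRNA-seq it was 1 scaled from TPM, 0 with the neighbour offset, 6 at 0.05 and 0 to 3 without 1 sample. Of 3 in shAgo2 it was 5 with no filter, 5 with only 2 groups in the fit, 2 scaled from TPM, 7 at 0.05 and 2 to 3 without 1 sample. Of 1 in DroshaKD it was 3 with no filter, 3 with DESeq2, 0 scaled from TPM, 0 with unmatched transcripts kept, 0 at 0.005 and 0 to 1 without 1 sample. Of 1 between shDicer and shAgo2 it was 2 with no filter, 0 scaled from TPM, 2 at 0.05 and 0 to 1 without 1 sample. The cause was not tested.

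Over all genes, 2347 rose and 2145 fell in shDicer mRNA-seq (8663 in all at 0.05, 2725 to 4692 without 1 sample), 3630 and 3466 in shDicer chrRNA-seq (12395 at 0.05, 3843 to 5802), 4098 and 3971 in shAgo2 (13501 at 0.05, 4448 to 4853) and 392 and 718 in DroshaKD (317 scaled from TPM, 398 with unmatched transcripts kept, 84 at 0.005, 72 to 981). Between shDicer and shAgo2, 450 were higher and 441 lower (1414 in all with no filter, 382 scaled from TPM, 244 with unmatched transcripts kept, 420 with the neighbour offset, 3215 at 0.05, 107 to 575). The offset reversed TRUB2 in shDicer chrRNA-seq (0.09) and TRUB2 (0.13), DUS2 (0.14) and ZBTB8OS (0.10) in shAgo2. The lowest counts came without wt replicate 1 in both shDicer comparisons and in DroshaKD, without shAgo2 replicate 1 in shAgo2 and without shAgo2 replicate 2 between the lines; leaving out either wt sample, or in shAgo2 any sample, moved the chrRNA-seq counts by over 1.5 times, as did DroshaKD replicate 1 (650) and each sample between the lines. A group left with 1 sample was assumed to vary like the others.

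Samples with the same replicate number showed little joint deviation (correlations of 0.0455 to 0.0812 in mRNA-seq and −0.074 to 0.0279 in chrRNA-seq). Such correlations over all tested genes cannot exclude that equal numbers share a preparation, and the labels do not say. With the replicate block, 4773 genes were called in shDicer mRNA-seq (2 of the 9 genes), 5879 in shDicer chrRNA-seq (3 of the 9), 452 in DroshaKD (0 of the 9) and 413 between shDicer and shAgo2. ANG is limited by depth, with under 50 estimated counts in every sample.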

Other observations

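RNA polymerase III, which makes tRNA, was described by 22 genes for its subunits, its factors and its repressor. In shDicer mRNA-seq 0 of them rose and 7 fell (median −0.32), in shDicer chrRNA-seq 0 rose and 10 fell (median −0.48), and in shAgo2 chrRNA-seq 1 rose and 11 fell (median −0.46), while 0 were called in DroshaKD (median −0.12). Of all tested genes, 14.2, 10.5, 12.1 and 2.18% fell and 15.6, 11.0, 12.5 and 1.19% rose in these 4 comparisons. Of those with a mean log2 CPM of 3 or more, 19.4, 18.1, 20.1 and 4.23% fell and 16.7, 14.6, 16.3 and 1.78% rose. POLR3F, a subunit, fell from 49 ± 2.58 to 21.4 ± 1.94 CPM in shDicer mRNA-seq (SD, n = 3 each, −1.19, adjusted p = 3.67e-06) and by 0.93 in shDicer chrRNA-seq (adjusted p = 8.59e-05). GTF3A, the factor for 5S RNA genes, fell by 0.97 and GTF3C6, a subunit of the factor that binds tRNA genes, by 0.94 in shDicer mRNA-seq. In chrRNA-seq GTF3C5 fell by 0.59 in shDicer and 0.52 in shAgo2, BRF2 by 0.78 in shDicer, and in shAgo2 POLR3E fell by 0.80 and POLR3A, the largest subunit, from 352 ± 12.2 to 228 ± 11.6 CPM (n = 2 each, −0.63). In shDicer mRNA-seq GTF3C5 was at 0.34 and BRF2 at −0.30, neither called, while POLR3E (−0.78) and POLR3A (−0.56) were called. The repressor, MAF1, was itself among the genes that fell in chrRNA-seq, at −0.61 in shDicer and −0.75 in shAgo2. Its 50 nearest tested genes were at a median of −0.61 and −0.73 there. In shDicer mRNA-seq MAF1 was at −0.24 and not called. The 2 chrRNA-seq comparisons share the wt samples, and between shDicer and shAgo2 0 of the 22 were called. Relative to the 50 nearest tested genes, GTF3C5 lost both calls (adjusted p = 0.00732 and 0.0584).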
